A study of Mus musculus with 6 samples.

Results

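The genes described here are 10 neuropeptide precursor genes of the hypothalamus, *Avp*, *Oxt*, *Hcrt*, *Pmch*, *Agrp*, *Npy*, *Trh*, *Ghrh*, *Crh* and *Sst*. They were taken by gene symbol from a raw count table of 37310 genes, and each symbol matched 1 row. Total RNA, depleted of ribosomal RNA, had been sequenced from the whole brain of 12-week-old male C57BL/6 mice. The 2 genotypes were *Adar1* E861A/E861A Ifih1-/- (called E861A) and *Adar1*+/+ Ifih1-/- (called WT), with 3 libraries each from separate biological replicates. Both genotypes therefore lacked *Ifih1*, the gene of MDA5, a sensor of double-stranded RNA in the cytoplasm, and neither group is a wild-type mouse. The E861A substitution leaves an ADAR1 protein that cannot edit RNA. Both alleles are carried in the germline and so are present in every cell, and the counts of a point-mutant gene cannot check the genotype labels. The question addressed was whether the transcript level of any of these neuropeptide genes differed between adult brains with and without ADAR1 editing.

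Neuropeptides are made as larger precursors that are cut into active peptides inside dense-core granules and released from neurons. In the hypothalamus they mark small, well separated neuron groups: magnocellular neurons send vasopressin and oxytocin to the posterior pituitary, lateral hypothalamic neurons use orexin and melanin-concentrating hormone to act on arousal and feeding, arcuate neurons use AgRP and NPY to promote feeding, and neurosecretory neurons release factors that control the anterior pituitary. Some of the precursors, above all those of somatostatin and NPY, are also made by GABAergic interneurons throughout the cortex and hippocampus.

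The libraries held between 26853488 and 38076753 counts, so that 3 counts, the upper limit that a count of 0 allows, corresponded to 0.0788 to 0.112 CPM (the count scaled to the column total). Marker genes of neurons and glia summed to 7197 to 7542 CPM in the 6 libraries, and 1 library stood apart. In E861A replicate 1 the 9 pituitary genes that were found in the table (*Gh*, *Prl*, *Pomc*, *Cga*, *Tshb*, *Fshb*, *Pou1f1*, *Pitx1* and *Tbx19*) summed to 444 CPM, against 1.44 to 3.803 CPM in the other 5 libraries. All 9 were highest in that library, and 5 of them were at 0 in at least 1 other library. The fold change of each neuropeptide gene is therefore also given without this library.

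No neuropeptide gene was called between the genotypes (adjusted p-value under 0.05, edgeR quasi-likelihood test with Benjamini-Hochberg adjustment over all tested genes). Of the 10 genes, 6 passed the expression filter (at least 2 CPM in 3 of 3 libraries of either genotype), and 0 of these were called, where 0.506% of the 13649 tested genes were. *Hcrt*, *Pmch* and *Agrp* passed only the weaker filter filterByExpr of edgeR, which called 0.568% of 19366 genes. *Ghrh* passed neither and was read from the fit of all 29282 counted genes, of which 1.28% were called. At an unadjusted p under 0.05, 2 of the 10 genes were lower in E861A, *Pmch* in the weaker filter and *Trh* among the 6 filtered genes, where 9.01% of all tested genes had such a p. DESeq2 called 0 of the 10, with 0 at an unadjusted p under 0.05, and limma-voom called 0, with the same 2 genes at an unadjusted p under 0.05. In total 7 genes had a lower mean in E861A and 3 a higher one, and the median log2 fold change of the 6 filtered genes was -0.05 against -0.00100 for all tested genes.

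**Figure D1:**
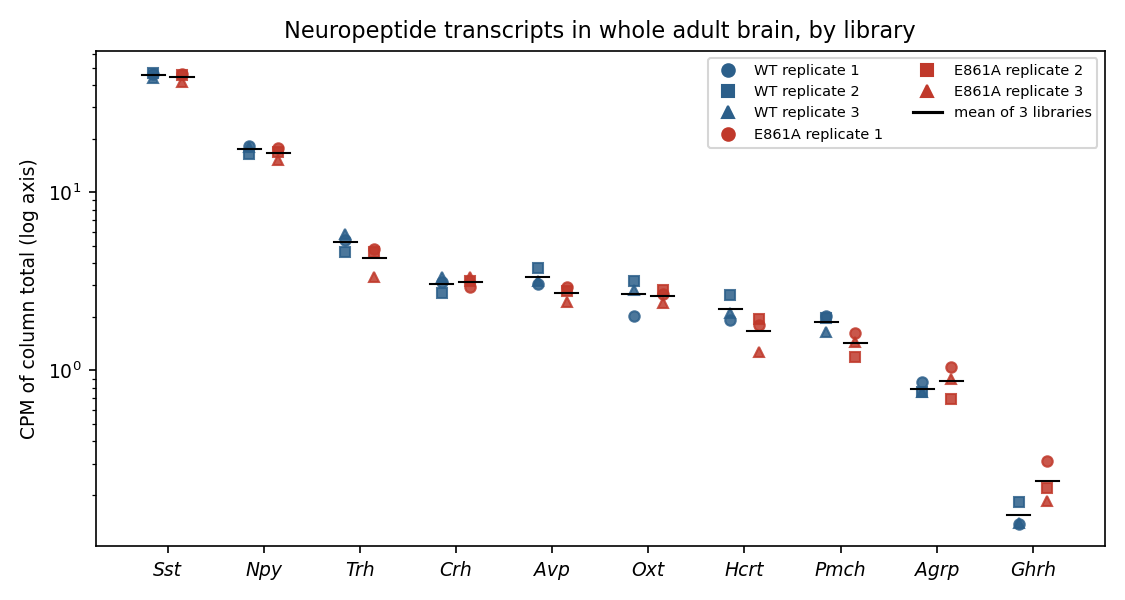
CPM of each neuropeptide gene (log axis) in the 3 WT libraries (blue) and the 3 E861A libraries (red), with 1 marker shape per replicate number and a bar at the mean of 3 libraries. *Sst* lies at 41.5 to 46.5 CPM and *Ghrh* at 0.138 to 0.312 CPM, and the 2 genotypes are apart only for *Avp* and *Pmch*, both lower in E861A, and for *Ghrh*, higher in E861A.

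The levels covered a wide range. Divided by the length of their exons, the genes ran from *Sst*, with a mean of 74.9 CPM per kb over the 6 libraries, through *Npy* with 30.1, to *Avp* with 5.25 and *Oxt* with 4.94 CPM per kb. *Trh* followed with 3.45, *Hcrt* with 2.60, *Crh* with 2.36, *Pmch* with 2.20, *Agrp* with 1.26 and *Ghrh* with 0.295 CPM per kb. The ranges over the libraries were apart between *Sst* and *Npy*, between *Npy* and *Avp*, between *Pmch* and *Agrp*, and between *Agrp* and *Ghrh*. The other neighbours in this order overlapped, so that *Avp* and *Oxt*, for example, were not separated in level by more than the spread between libraries.

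*Avp* (ENSMUSG00000037727) and *Oxt* (ENSMUSG00000027301) encode the precursors of vasopressin, which retains water in the kidney and constricts vessels, and of oxytocin, which drives milk ejection and uterine contraction. Each precursor also contains a neurophysin, the carrier that packs the hormone in its granule. The genes lie side by side on opposite strands of chromosome 2 (build NCBIM37), *Avp* at chr2:130406356-130408290 on the minus strand and *Oxt* at chr2:130401909-130402790 on the plus strand, with 3565 bases between them, and each has 3 exons. Their coding sequences share an unbroken run of 127 identical bases, which is shown because it is longer than the 75-base reads and bears on how reads were assigned between both genes. Capitals mark the last 2 bases of exon 1, and the other 125 bases are in exon 2, at chr2:130406869-130406993 in *Avp* and at chr2:130402327-130402451 in *Oxt*.
Shared run of *Avp* and *Oxt*: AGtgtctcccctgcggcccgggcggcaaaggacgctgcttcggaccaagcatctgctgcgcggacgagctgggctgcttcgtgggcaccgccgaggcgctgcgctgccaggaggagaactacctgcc
Of the 463 possible 75-base windows of the *Oxt* transcript, 53 occur unchanged in the *Avp* transcript. The aligner counts uniquely mapped reads, so a pair with both ends in that run would be assigned to neither gene.

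*Avp* was at 2.94, 2.78 and 2.42 CPM in E861A replicates 1 to 3 and at 3.04, 3.78 and 3.19 CPM in WT replicates 1 to 3, from 65 to 144 counts per library. All E861A libraries were below all WT libraries, by a narrow margin. The mean was 2.72 ± 0.268 CPM in E861A and 3.34 ± 0.391 CPM in WT (SD, n = 3), a log2 fold change of -0.29 (SE 0.142, 95% interval -0.60 to 0.01). It was not called in edgeR (p = 0.0575, adjusted p = 0.566), and the exact permutation test of 3 against 3 libraries gave p = 0.1, the smallest value it can give. Without overlap between genotypes were 3 of the 10 genes (*Avp*, *Pmch* and *Ghrh*) and 11.1% of all counted genes. The log2 fold change of *Avp* was -0.34 without E861A replicate 1 and -0.18 without WT replicate 2, the library with the highest value. In RNA from whole brain, fewer neurons of a type and less transcript per neuron cannot be told apart, and this holds for every gene below.

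*Oxt* was at 2.70, 2.81 and 2.38 CPM in E861A and at 2.02, 3.18 and 2.83 CPM in WT, and the WT libraries lay on both sides of the E861A libraries. The means of E861A and WT were 2.63 ± 0.222 and 2.67 ± 0.595 CPM (SD, n = 3). This gave a log2 fold change of -0.02 (SE 0.173, 95% interval -0.39 to 0.35, adjusted p = 0.985, edgeR). The exact permutation p was 0.9, and the log2 fold change without E861A replicate 1 was -0.02.

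The share of *Avp* in the summed *Avp* and *Oxt* counts was calculated after the values had been seen and is given as a description. It was 52.1% (95% exact binomial interval 44.2 to 60.0), 49.8% (42.7 to 56.8) and 50.4% (41.5 to 59.3) in E861A replicates 1 to 3. In WT it was 60.1% (52.6 to 67.3), 54.3% (48.1 to 60.4) and 53.0% (46.1 to 59.8). Every E861A share was below every WT share, but the intervals, which cover counting error only, overlapped between all libraries.

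*Hcrt* (ENSMUSG00000045471, chr11:100622383-100624245, minus strand, 3 exons) and *Pmch* (ENSMUSG00000035383, chr10:87553817-87555120, plus strand, 3 exons) encode prepro-orexin, whose peptides maintain wakefulness, and the precursor of melanin-concentrating hormone, which promotes feeding and sleep. Both were just under the expression filter: the lowest WT library of *Hcrt* was at 1.91 CPM, while that of *Oxt*, just inside, was at 2.02 CPM. *Hcrt* was at 1.80, 1.96 and 1.27 CPM in E861A and at 1.91, 2.65 and 2.10 CPM in WT. The genotypes overlapped, with E861A replicate 2 above WT replicate 1. The log2 fold change was -0.40 (SE 0.20, 95% interval -0.82 to 0.02, p = 0.0628, adjusted p = 0.638 in edgeR), with an exact permutation p of 0.2. It was -0.43 without E861A replicate 1, -0.25 without E861A replicate 3, the library with the lowest value, and -0.23 without WT replicate 2, the library with the highest.

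*Pmch* was at 1.63, 1.19 and 1.45 CPM in E861A and at 2.02, 1.97 and 1.65 CPM in WT. All E861A libraries were below all WT libraries, with E861A replicate 1 and WT replicate 3 nearly level. The mean was 1.42 ± 0.223 CPM in E861A and 1.88 ± 0.198 CPM in WT (SD, n = 3), a log2 fold change of -0.42 (SE 0.187, 95% interval -0.82 to -0.03). This did not pass the test (p = 0.0381, adjusted p = 0.580 in edgeR, exact permutation p = 0.1). The log2 fold change was -0.52 without E861A replicate 1.

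The counts of *Pmch* are uncertain because its exons overlap those of a gene on the opposite strand. *Parpbp* (ENSMUSG00000035365), a protein-coding gene, shares 435 of the 749 exon bases of *Pmch* (58.1%). The library kit kept strand information, but which strand column was used for the counts is not given in the sources used here. *Parpbp* held 8, 16 and 8 counts in E861A and 23, 19 and 20 counts in WT. Its E861A libraries too were all below the WT libraries, with a log2 fold change of -0.70 (SE 0.313, adjusted p = 0.580, edgeR with filterByExpr). Whether reads from the shared bases were counted for the right gene, for the other gene or for neither was not tested.

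**Figure D2:**
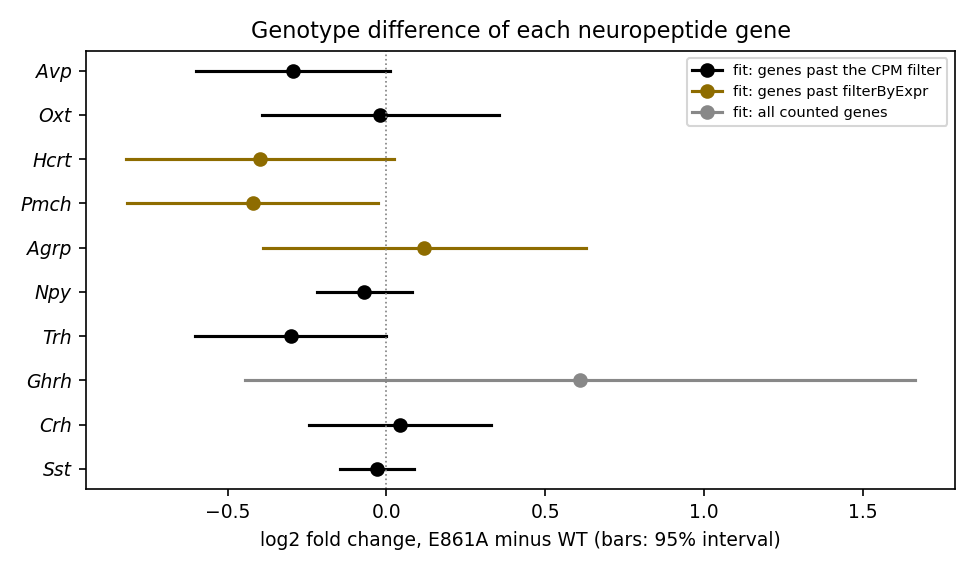
Log2 fold change of each neuropeptide gene, E861A minus WT, with its 95% interval from edgeR, coloured by the fit that each gene could enter. The intervals of *Pmch* (-0.82 to -0.03) and *Trh* exclude 0 before adjustment, those of *Sst* and *Npy* are the narrowest, and that of *Ghrh* is the widest, from -0.45 to 1.67.

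*Agrp* (ENSMUSG00000005705, chr8:108090600-108092198, minus strand, 5 exons) and *Npy* (ENSMUSG00000029819, chr6:49772709-49779506, plus strand, 4 exons) encode the melanocortin receptor antagonist AgRP and neuropeptide Y, which are made together in arcuate neurons that drive feeding. *Agrp*, whose transcript is nearly restricted to those neurons, was at 1.04, 0.689 and 0.894 CPM in E861A and at 0.857, 0.762 and 0.756 CPM in WT. The genotypes overlapped, and E861A replicates 1 and 2 were the highest and the lowest library. The log2 fold change was 0.12 (SE 0.24, 95% interval -0.39 to 0.63, adjusted p = 0.924, edgeR with filterByExpr). It was -0.01 without E861A replicate 1, the library with the pituitary transcripts, whose part in this value was not tested.

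*Npy* was at 17.7, 16.9 and 15.2 CPM in E861A and at 18.1, 16.4 and 18.0 CPM in WT. The genotypes overlapped, and the log2 fold change of -0.07 had a narrow interval (SE 0.07, 95% interval -0.22 to 0.08, adjusted p = 0.807, edgeR). The exact permutation p was 0.5. Without E861A replicate 1 the log2 fold change was -0.10, and without E861A replicate 3 it was -0.02. Per length, the level of *Npy* was 30.1 CPM per kb against 1.26 CPM per kb for *Agrp*, and *Npy* is also made by interneurons outside the hypothalamus.

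*Trh* (ENSMUSG00000005892, chr6:92192055-92194644, minus strand, 3 exons) encodes the precursor of thyrotropin-releasing hormone, which stimulates the release of TSH. It was at 4.81, 4.60 and 3.35 CPM in E861A and at 5.39, 4.62 and 5.85 CPM in WT. E861A replicate 1 was above WT replicate 2, and E861A replicate 3 was well below all others. The means of E861A and WT were 4.26 ± 0.791 and 5.29 ± 0.622 CPM (SD, n = 3). The log2 fold change of -0.30 (SE 0.14, 95% interval -0.60 to -0.0015) was not called in edgeR (p = 0.0490, adjusted p = 0.553), and the exact permutation p was 0.2. Without E861A replicate 3 it was -0.17 (adjusted p = 0.936, edgeR), and without E861A replicate 1 it was -0.38 (adjusted p = 0.585, edgeR).

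*Crh* (ENSMUSG00000049796, chr3:19593401-19595396, minus strand, 2 exons) encodes corticotropin-releasing hormone, which starts the hormonal stress response and is also made by cortical interneurons. It was at 2.94, 3.17 and 3.35 CPM in E861A and at 3.15, 2.73 and 3.33 CPM in WT, and the genotypes overlapped. Its log2 fold change was 0.04 (SE 0.133, 95% interval -0.24 to 0.33, adjusted p = 0.953, edgeR), and 0.10 without E861A replicate 1.

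*Ghrh* (ENSMUSG00000027643, chr2:157155233-157173242, minus strand, 7 exons) encodes growth hormone-releasing hormone, made by a small arcuate population. It held 9, 8 and 5 counts in E861A and 5, 7 and 5 counts in WT. In CPM these were 0.312, 0.220 and 0.186 against 0.138, 0.184 and 0.140, so that the E861A libraries were above the WT libraries by a margin that 1 count can close. Its log2 fold change was 0.61 (SE 0.539, 95% interval -0.45 to 1.67, adjusted p = 0.840) in the edgeR fit of all counted genes, in which the spread of a single gene did not enter its test. It was 0.41 without E861A replicate 1, the library with the most counts of *Ghrh* and with the pituitary transcripts. A difference between the genotypes was not detectable at this depth.

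*Sst* (ENSMUSG00000004366, chr16:23889667-23890930, minus strand, 2 exons) encodes somatostatin, which periventricular neurons secrete to inhibit growth hormone release and which marks a large class of interneurons. It was the gene with the most counts, 1114 to 1771 per library. In CPM it was at 46.0, 45.6 and 41.5 in E861A and at 45.8, 46.5 and 43.7 in WT, and the genotypes overlapped. The means of E861A and WT were 44.4 ± 2.498 and 45.3 ± 1.49 CPM (SD, n = 3). This gave a log2 fold change of -0.03 (SE 0.055, 95% interval -0.15 to 0.09, adjusted p = 0.905, edgeR), and -0.04 without E861A replicate 1.

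Libraries with the same replicate number deviated more alike than others, as given with the processing, but the labels do not make them pairs. With the replicate number as a block, edgeR called 1.16% of the 13649 tested genes, against 0.506% without it. Again 0 of the 10 neuropeptide genes were called, each read from the block fit of its own filter. An unadjusted p under 0.05 was found for *Avp* (adjusted p = 0.307, expression filter), and with filterByExpr for *Hcrt* (adjusted p = 0.306) and *Pmch* (adjusted p = 0.323). The share of all genes with such a p was not computed for the block.

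**Figure D3:**
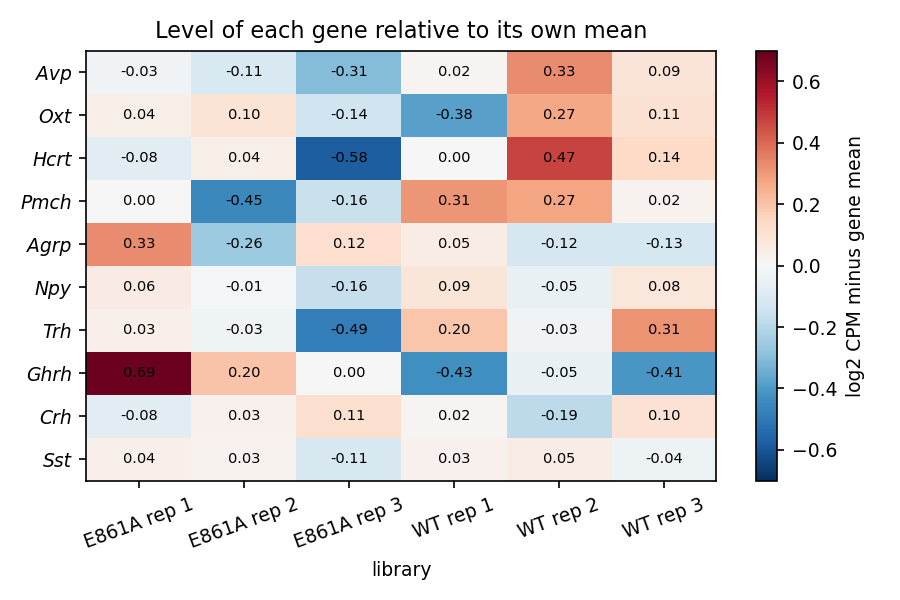
Log2 CPM of each neuropeptide gene minus its own mean over the 6 libraries, as a colour and a number in each cell, with E861A libraries on the left and WT libraries on the right. The column of E861A replicate 3 holds the lowest value for *Avp*, *Hcrt* and *Trh*, and that of WT replicate 2 the highest for *Avp*, *Oxt* and *Hcrt*.

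The libraries of 1 genotype also differed among themselves. E861A replicate 3 was the lowest of the 6 libraries for 5 of the 10 genes, whereas 26.9% of all tested genes were lowest in that library. It was the lowest of its genotype for 7 of the 10, and the matching share of all tested genes was not computed. WT replicate 2 was the highest for 4 genes, whereas 12.3% of all tested genes were highest there. Relative to the mean of each gene over the 6 libraries, E861A replicate 3 was at -0.58 on the log2 scale for *Hcrt*, -0.49 for *Trh* and -0.31 for *Avp*. Without E861A replicate 3, none of the 10 genes had an unadjusted p under 0.05 in edgeR, and the log2 fold changes were -0.23 for *Avp* and -0.44 for *Pmch*.

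**Figure D4:**
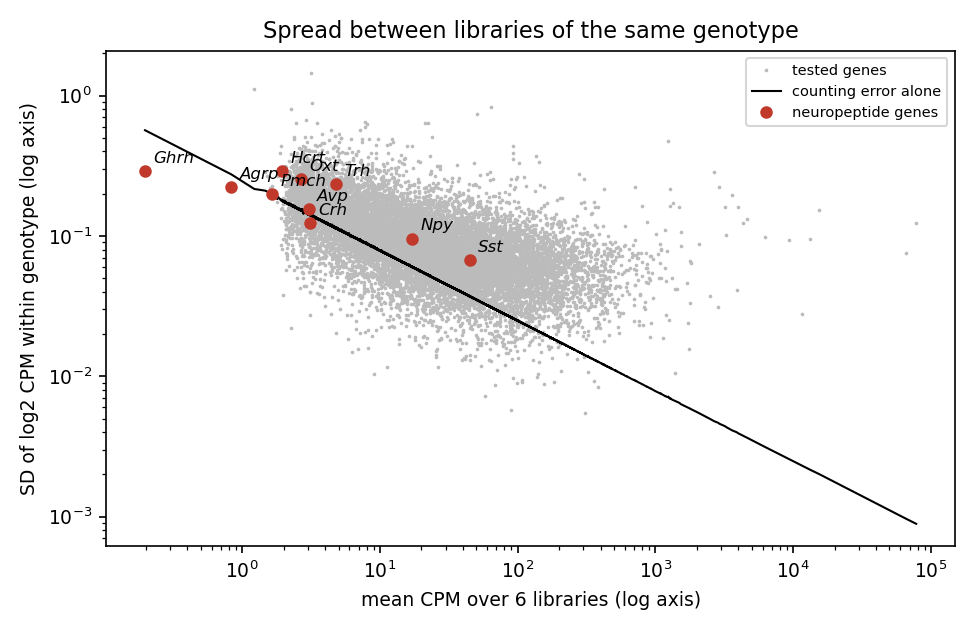
SD of log2 CPM between libraries of the same genotype against mean CPM (both log axes) for all genes tested with the expression filter (grey), the 10 neuropeptide genes (red) and the SD that counting error alone gives at each level (line). *Hcrt* (0.289), *Oxt* (0.254) and *Trh* (0.234) lie above the line, while *Agrp* and *Ghrh* lie below it.

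For *Avp*, *Pmch* and *Crh* the spread within a genotype was near what counting alone gives. The SD of log2 CPM was 0.154 for *Avp* against 0.142 from counting error, 0.197 against 0.193 for *Pmch* and 0.124 against 0.141 for *Crh*. *Trh* was more variable than counting error, with 0.234 against 0.113, as were *Oxt* with 0.254 against 0.152 and *Hcrt* with 0.289 against 0.176. The same held at lower spread for *Npy*, with 0.0958 against 0.0601, and for *Sst*, with 0.0674 against 0.0371. Of all tested genes, whose median SD was 0.0844, 95.1% had a lower SD than *Trh* and 96.3% a lower SD than *Oxt*. The tested genes were not matched in level, and for *Avp*, near its counting error, the share was 83.2%. For *Npy* this share was 58.2%, and for *Sst* it was 35.1%.

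The profiles over the 6 libraries were compared with those of all tested genes by the mean absolute difference in centred log2 CPM, as a description. The nearest to *Avp* were *Pafah1b3* (0.0414), *Chat* (0.0436) and *Inhbb* (0.0447), and to *Oxt* they were *Tcn2* (0.0394), *Slc12a8* (0.0460) and *Tsc22d3* (0.0533). The nearest to *Hcrt* were *Chat* (0.0861), *Acer2* (0.0868) and *Mgp* (0.0879). *Pmch* was nearest to *4430402I18Rik* (0.0792), *4933428G20Rik* (0.0810) and *A930033H14Rik* (0.0825). Among the neuropeptide genes themselves *Npy* and *Sst* were the closest pair (0.0630), and both were close to flat.

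The promoters of most of the genes shared a feature that the choice of genes did not use. The RefSeq promoter table (GRCm38.p6) held 9 entries for 8 of the 10 genes, and not for *Agrp* and *Crh*. In the 50 bases before the start, TATAA or ATAAA, which overlap in TATAAA, stood on the sense strand in 7 of 9 entries. Of all 32851 promoter entries, 8.72% held it there (12.7% on either strand). By gene it was 7 of 8, and *Ghrh* held it only in its more downstream entry. *Sst* did not hold these letters in that window. It held TGACGTCA, the palindromic cAMP response element, at position -48 from its start, which was found within 250 bases before the start in 1.55% of all entries on either strand. The windows of the 4 genes with the lowest fold changes and of *Sst* are shown from 5′ to 3′ on the sense strand, with these motifs in capitals. On its own chromosome and strand in NCBIM37, each was found exactly once.
*Avp* (chr2:130408325-130408374, minus strand): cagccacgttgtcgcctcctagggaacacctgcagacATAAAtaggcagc
*Hcrt* (chr11:100624246-100624295, minus strand): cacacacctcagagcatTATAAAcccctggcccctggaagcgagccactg
*Pmch* (chr10:87553767-87553816, plus strand): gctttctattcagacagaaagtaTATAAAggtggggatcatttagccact
*Trh* (chr6:92194645-92194694, minus strand): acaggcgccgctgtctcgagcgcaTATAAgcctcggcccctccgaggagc
*Sst* (chr16:23890931-23890980, minus strand): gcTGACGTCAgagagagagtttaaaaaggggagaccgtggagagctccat
The match in *Avp* began at position -13 from the RefSeq start, which is 34 bases upstream of the start in the annotation of the files. The others began at -33 in *Hcrt*, -27 in *Pmch* and -26 in *Trh*. A match is a description of the sequence and not a measured binding site.

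Among the genes around these peptides, none was called without the replicate block, and *Vip* and *Chgb* were called with it. Of 22 other hypothalamic peptide genes found in the table, 10 were tested and 0 were called in edgeR, with 1 at an unadjusted p under 0.05 and a median log2 fold change of 0.03. That gene was *Vip*, for vasoactive intestinal peptide, with a log2 fold change of 0.32 (adjusted p = 0.1003, and 0.0479 with the block, edgeR). The 3 with the highest level were *Penk* (enkephalins), at 82.9 ± 4.12 CPM in E861A and 85.2 ± 0.194 CPM in WT, *Cck* (cholecystokinin), with a log2 fold change of 0.05, and *Tac1* (substance P), with -0.07. *Pomc*, the precursor of the melanocortins and of pituitary ACTH, was looked at after its values were seen. It held 836 counts in E861A replicate 1 and 19 to 43 in the other 5 libraries, and it is also one of the pituitary genes.

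Of 23 receptor and binding protein genes for the 10 peptides, 13 were tested, and 0 were called, with 0 at an unadjusted p under 0.05 and a median log2 fold change of 0.02. *Crhr1*, a receptor for CRH, was at 17.0 ± 3.29 CPM in E861A and 16.6 ± 2.11 CPM in WT (log2 fold change 0.03, adjusted p = 0.956, edgeR), and *Npy1r* and *Sstr3*, receptors for NPY and somatostatin, had log2 fold changes of 0.01 and 0.03. *Ghrhr*, the receptor for GHRH on pituitary somatotrophs, was seen only as 7 counts in E861A replicate 1 and was at 0 in the other 5 libraries.

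All 12 genes for precursor processing and granule proteins were tested, and 0 were called, with 2 lower at an unadjusted p under 0.05, *Chga* and *Chgb*. Such a p, in either direction, was found for 9.01% of all tested genes. *Cpe*, the carboxypeptidase that trims the cut peptides, was at 1115 ± 60.3 CPM in E861A and 1040 ± 70.0 CPM in WT (log2 fold change 0.10, adjusted p = 0.676, edgeR). *Chgb*, which encodes the granule protein chromogranin B, was at 297 ± 19.8 CPM in E861A and 335 ± 13.2 CPM in WT. Its log2 fold change of -0.17 was not called without the block (adjusted p = 0.317) and was called with it (adjusted p = 0.0244, edgeR). *Scg2*, for secretogranin II, had a log2 fold change of -0.04.

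Transcription factor genes of the hypothalamus were summed in each library. In whole brain the values of these genes were not separated by region, and whether this sum follows the amount of hypothalamus was not tested. The 14 such genes that were found summed to 18.8 to 21.0 CPM in E861A and to 20.8 to 22.9 CPM in WT. Of them 1 was at 0 in a library, and E861A replicate 3 had the lowest sum. Most of the sum came from *Six3*, *Nkx2-2* and *Isl1*, with means of 9.69, 4.14 and 2.58 CPM over the 6 libraries. Only 3 were tested, *Six3*, *Nkx2-2* and *Isl1*, with log2 fold changes of -0.18, -0.21 and -0.04, and 0 were called in edgeR, with 0 at an unadjusted p under 0.05. Over all 14, the log2 fold change was positive for 7 and negative for 7, most of them at low counts. *Otp*, which is needed for neuroendocrine neurons, was at 0.312, 0.634 and 0.559 CPM in E861A and at 0.912, 0.709 and 0.672 CPM in WT (log2 fold change -0.59, adjusted p = 0.639, edgeR with filterByExpr). *Sim1*, which marks the paraventricular nucleus, was at 1.73, 1.32 and 1.53 CPM in E861A and at 1.47, 1.63 and 1.18 CPM in WT, which overlapped (log2 fold change 0.08). *Nkx2-1*, which marks the ventral hypothalamus, was at 1.21, 1.41 and 1.19 CPM in E861A and at 1.16, 1.16 and 0.924 CPM in WT, with all E861A libraries above the WT libraries (log2 fold change 0.24, adjusted p = 0.814, edgeR with filterByExpr). *Six6* and *Nr5a1* each held 16 counts in E861A replicate 1, the library with the pituitary transcripts, and 4 to 8 in the other libraries. Their log2 fold changes were 1.04 and 0.77 in the fit of all counted genes. The part that the amount of hypothalamus had in the lower values of *Avp*, *Hcrt*, *Pmch* and *Trh* was not tested.

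**Figure D5:**
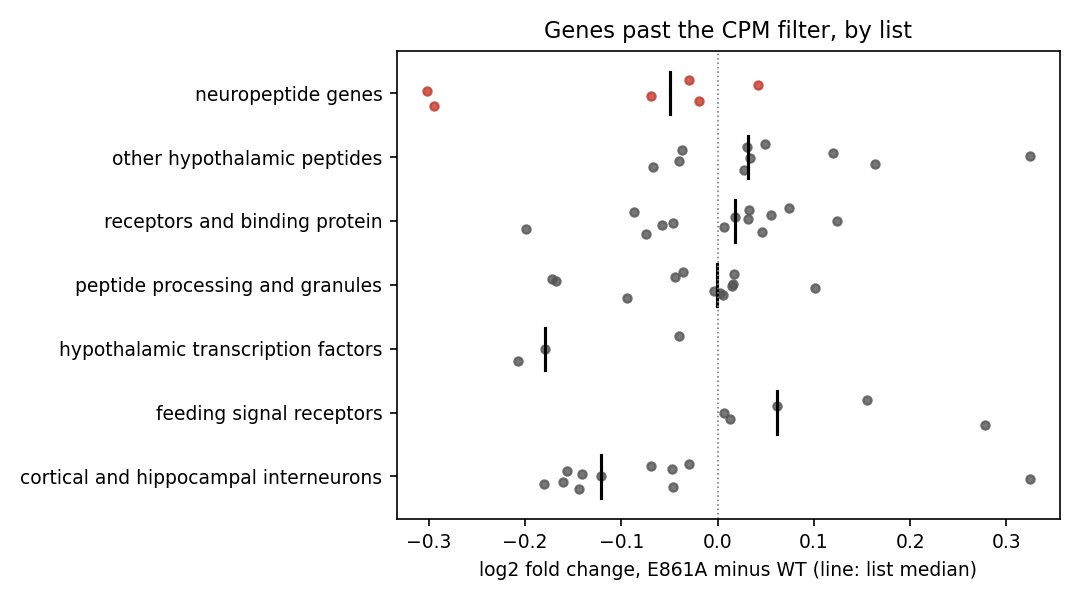
Log2 fold change, E861A minus WT, of the neuropeptide genes (red) and of the genes of 6 related lists (grey) that passed the expression filter, with a black line at the median of each list. The neuropeptide genes have a median of -0.05, with *Trh* and *Avp* at the low end, and the only value above 0.3 belongs to *Vip*, which is plotted in 2 lists.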

How the data were processed

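RNA was measured in 6 whole-brain libraries, prepared with a stranded kit and read from both ends in reads of 75 bases on a single run. The authors aligned reads to NCBIM37 (mm9) and deposited raw counts per gene, 1 column per library, without normalization. The submitters' processing notes name Trimmomatic 0.36, STAR 2.5.2a and edgeR, and the strand column counted is not given in the sources used here. The authors' CPM tables and their table of fold changes and adjusted p-values were not used. Groups followed the genotype in the labels.

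CPM was the count divided by the column total (26853488 to 38076753). Genotypes were compared in R 4.3.3 with the edgeR 4.0.16 quasi-likelihood test, TMM scaling (factors 0.985 to 1.02) and no covariates, on 13649 genes with at least 2 CPM in 3 of 3 libraries of either genotype. Genes that failed this were read from filterByExpr (19366 genes) or, for *Ghrh*, from all 29282 counted genes. Adjusted p-values are those of Benjamini and Hochberg over all genes of a fit. Exact permutation tests were two-sided, used log2(CPM + 0.5) and cannot give a p below 0.1. Alternatives were limma 3.58.1 (voom), DESeq2 1.42.0, a likelihood ratio test, other scalings and filters, the replicate block and leaving out each library. The tests were checked on simulated data.

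Same-numbered libraries deviated together (r of 0.225, 0.336 and 0.116 across genes, against -0.259 to 0.0505 for different numbers). The numbers come from the labels, which do not say what they share. Deviations were taken from the mean of each genotype, so a positive r forces negative values elsewhere. These values do not show that the libraries were paired. The reported tests have no block, and values with the number as a block are given beside the results that it changes.

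The 10 genes and the other lists were chosen with earlier results of these data known. Named genes were the 10, and of each list the called genes, the 3 with the highest mean CPM, any pituitary, brain or hypothalamic transcription factor gene set beside them, and, for *Avp*, *Oxt*, *Hcrt* and *Pmch*, the 3 nearest profiles. Of 116 genes in 10 other lists, 112 were found and 67 tested. *Gad1*, *Mc4r*, *Npy*, *Npy1r*, *Pomc*, *Sst* and *Vip* were each in 2 lists. *Pomc*, *Vip*, *Ghrhr*, *Parpbp*, *Chga* and *Lepr* were named after their values were seen. The reads carried no molecular identifiers, so intervals and limits from counts cover counting error alone.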

Additional observations from a re-analysis of the deposited data

How the results depend on the processing

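None of the 10 neuropeptide genes was called under any of the 15 alternatives, and the lowest adjusted p was 0.298. Of 149 fits of single genes, 140 kept their direction and 9 reversed, all of *Oxt*, *Agrp*, *Crh* and *Sst*. *Oxt* was at 0.00885 with limma-voom, and leaving out 1 library gave -0.191 to 0.139 for *Oxt*, -0.00937 to 0.270 for *Agrp*, -0.0273 to 0.102 for *Crh* and -0.0595 to 0.00916 for *Sst*. The same gave -0.36 to -0.18 for *Avp*, -0.55 to -0.23 for *Hcrt*, -0.52 to -0.31 for *Pmch*, -0.10 to -0.02 for *Npy*, -0.38 to -0.17 for *Trh* and 0.41 to 0.77 for *Ghrh*. Other pseudocounts (0.1 and 1) and TMM-scaled CPM turned no direction in the exact comparisons. The number of neuropeptide genes with an unadjusted p under 0.05, 2 in the comparison reported, ranged from 0 (DESeq2, and without E861A replicate 3) to 4 (no filter). In the fit with no filter the spread of a single gene did not enter its test. The share of all genes with such a p in that fit was not computed. Over all tested genes 69 were called, with 139 in the likelihood ratio test, 110 with filterByExpr, 376 with no filter and 42 to 111 on leaving out 1 library (42 without E861A replicate 3, 111 without E861A replicate 2 and 104 without WT replicate 2). Of the genes of the other lists 0 were called, with 2 in the likelihood ratio test, 11 with no filter and 0 to 2 on leaving out 1 library (1 without E861A replicate 1 and 2 without E861A replicate 2). The cause of these changes was not tested. Among the genes called with no filter were the pituitary genes *Prl*, *Cga*, *Fshb* and *Pou1f1*. Most counts of each were in E861A replicate 1, which held 3274 counts of *Prl*, while no other library held more than 12. With the replicate block 158 genes were called, and 3 of the other lists (*Vip*, *Chgb* and *Ttr*). Among genes past the expression filter the block changed no other call described here. *Gh*, read from filterByExpr, had an adjusted p of 0.0666 without the block and 3.21e-06 with it (edgeR). Most of its counts were in E861A replicate 1. Of 135 medians of lists, 129 moved by less than 1 SD of the mean of the list between libraries of a genotype and 6 by more: brain (-0.00106) and choroid plexus (-0.103) without E861A replicate 1, processing and granules (-0.0471) without E861A replicate 2, other peptides (-0.0405) without WT replicate 1, and feeding receptors (0.0189) and blood (-0.0438) without WT replicate 2. Depth limits *Ghrh* most, at 5 to 9 counts per library, and 3 libraries per genotype limit all tests.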

Other observations

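The list of GABAergic interneuron genes includes *Sst* and *Npy*, and in whole brain its values were not separated by cell type. Of its 11 tested genes, 10 were lower in E861A, with *Vip* the exception, against 50.5% of all tested genes. The median log2 fold change was -0.12 (-0.13 without E861A replicate 1) against -0.00100 for all tested genes. None of the 11 was called in edgeR, with 1 higher and 4 lower at an unadjusted p under 0.05. Of all 13649 tested genes, 653 were higher and 577 lower at such a p (9.01% in either direction). *Gad1*, which encodes an enzyme of GABA synthesis, was at 322 ± 17.3 CPM in E861A and 356 ± 29.1 CPM in WT (SD, n = 3, log2 fold change -0.14, adjusted p = 0.515, edgeR). *Gad2*, for the other such enzyme, had a log2 fold change of -0.05, as did *Reln*, for the secreted protein reelin. *Vip*, which is made in interneurons and in the suprachiasmatic nucleus, was at 15.6 ± 1.01 CPM in E861A and 12.4 ± 0.580 CPM in WT, and all E861A libraries were above all WT libraries.

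Of 5 tested receptors of feeding signals, all 5 had a positive log2 fold change, with a median of 0.06 (0.02 without WT replicate 2). In edgeR 0 were called, with 2 at an unadjusted p under 0.05, *Lepr* and *Thrb*, where 9.01% of all tested genes had such a p. *Lepr*, the leptin receptor, had a log2 fold change of 0.28 (adjusted p = 0.522), and *Thrb*, a thyroid hormone receptor, was at 66.3 ± 0.665 CPM in E861A and 59.5 ± 5.41 CPM in WT (log2 fold change 0.16, adjusted p = 0.515, edgeR). *Nr3c1*, the glucocorticoid receptor, and *Insr*, the insulin receptor, had log2 fold changes of 0.06 and 0.01.

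Choroid plexus markers summed to 211 to 319 CPM in E861A and to 374 to 399 CPM in WT, without overlap. Most of this sum was *Ttr*. Of the 5 markers, the log2 fold change was negative for 3 and positive for 2. *Ttr*, which encodes transthyretin, had a log2 fold change of -0.51 (adjusted p = 0.124, and 0.0241 with the replicate block, edgeR), and the median of the 5 genes was -0.23. Without E861A replicate 1, where *Ttr* was at 183 CPM against 274 and 286 CPM in the other E861A libraries, the median was -0.10. The 3 blood genes had a median of -0.48, with sums of 26.5 to 37.3 CPM in E861A and 30.3 to 51.5 CPM in WT. Without WT replicate 2, where *Hba-a1* was at 21.9 CPM, their median was -0.04. The 10 brain markers had a median of -0.04, and -0.00106 without E861A replicate 1. The part of these differences in the values of the neuropeptide genes was not tested.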
